A study of Nannochloropsis oceanica strain IMET1 with 6 samples.

Results

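Of the cis-interactions listed in the nuclear genome of the oleaginous microalga Nannochloropsis oceanica IMET1, this account covers those that joined bins more than 100 kb apart without running from chromosome end to chromosome end, called inner cis-interactions here. A bin pair was taken when its 2 bin midpoints lay over 100 kb apart, unless they ran from the outer 20 kb at the left end of a chromosome to the outer 20 kb at its right end. The rule kept 243 of 10446 cis-interactions: C0 gave 98 of 4456, N1 gave 3 of 948 and N2 gave 142 of 5042. Since every bin pair was selected on being listed as significant, its p-value and its excess over the expected count are a description of the selection and not a result.

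Hi-C crosslinks chromatin, cuts it and ligates fragments that lie close together in the nucleus, so that the read pairs joining 2 loci, counted as contacts, record how often they met. In most eukaryotes contacts within a chromosome become rarer as loci lie farther apart. Contacts above that decline mark folding that brings distant loci together, such as loops, compartments of like chromatin, and the gathering of telomeres at the nuclear periphery that is known from yeasts and other organisms.

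The groups were cells of strain IMET1 in nitrogen-replete (NR) f/2 medium, sampled in the logarithmic phase (C0), and cells washed and moved to nitrogen-free medium (nitrogen deprivation, ND) for 1 day (N1) or 2 days (N2). By the paper's methods the light was also weaker after the change of medium, so light and nitrogen cannot be told apart. Nitrogen deprivation is the usual trigger of oil accumulation in this alga. Each group had 2 Hi-C replicates, 6 libraries in all, which the authors pooled before calling interactions, so each group has 1 value, no test between groups was possible, and the 95% intervals below cover counting error only. Positions are the authors' coordinates on version V2 of the IMET1 genome. Each bin is 1 kb long and is named here by its first base, so that the bin at 838001 ends at 839000. No genes are named, because a nuclear annotation was not used here.

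Depth differed between the groups. For average bins 200 kb apart, the expected contact count, worked back from the deposited p-values, was 0.427 in C0, 0.143 in N1 and 0.268 in N2. All 30 chromosomes together offered 14841854 inner bin pairs over 100 kb, of which the C0 list held 0.000660%, the N1 list 2.02e-05% and the N2 list 0.000957%. Over all cis distances of at least 2 kb, the C0 list held 0.0251% of bin pairs, the N1 list 0.00534% and the N2 list 0.0284%.

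The 2 large sets, listed at different depths, joined different places. Scaled to the depth of N2 with counts rounded down, 0 of the 98 C0 bin pairs still passed. Bin pairs like those of C0 could therefore have gone unlisted at N2. At N2, 8.45% of the inner bin pairs (12 of 142, exact binomial 95% interval 4.44% to 14.3%) joined flanks within 50 kb of opposite ends, against 61.2% at C0 (60 of 98, 50.8% to 70.9%). Such bin pairs made up 0.424% of all possible inner bin pairs, so the shares of both groups were above that. The counterpart was the chromosome interior: both bins lay over 50 kb from any end in 78.9% of the bin pairs at N2 (112 of 142, 71.2% to 85.3%) and in 23.5% at C0 (23 of 98, 15.5% to 33.1%), against 82.3% of possible bin pairs. The N2 share was thus close to that of possible bin pairs, while at C0 interior bin pairs were few. A bin within 20 kb of an end was part of 9.86% of inner bin pairs at N2 (14 of 142, 5.50% to 15.99%) and of 62.2% at C0 (61 of 98, 51.9% to 71.8%), against 7.29% of possible ones.

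**Figure D1:**
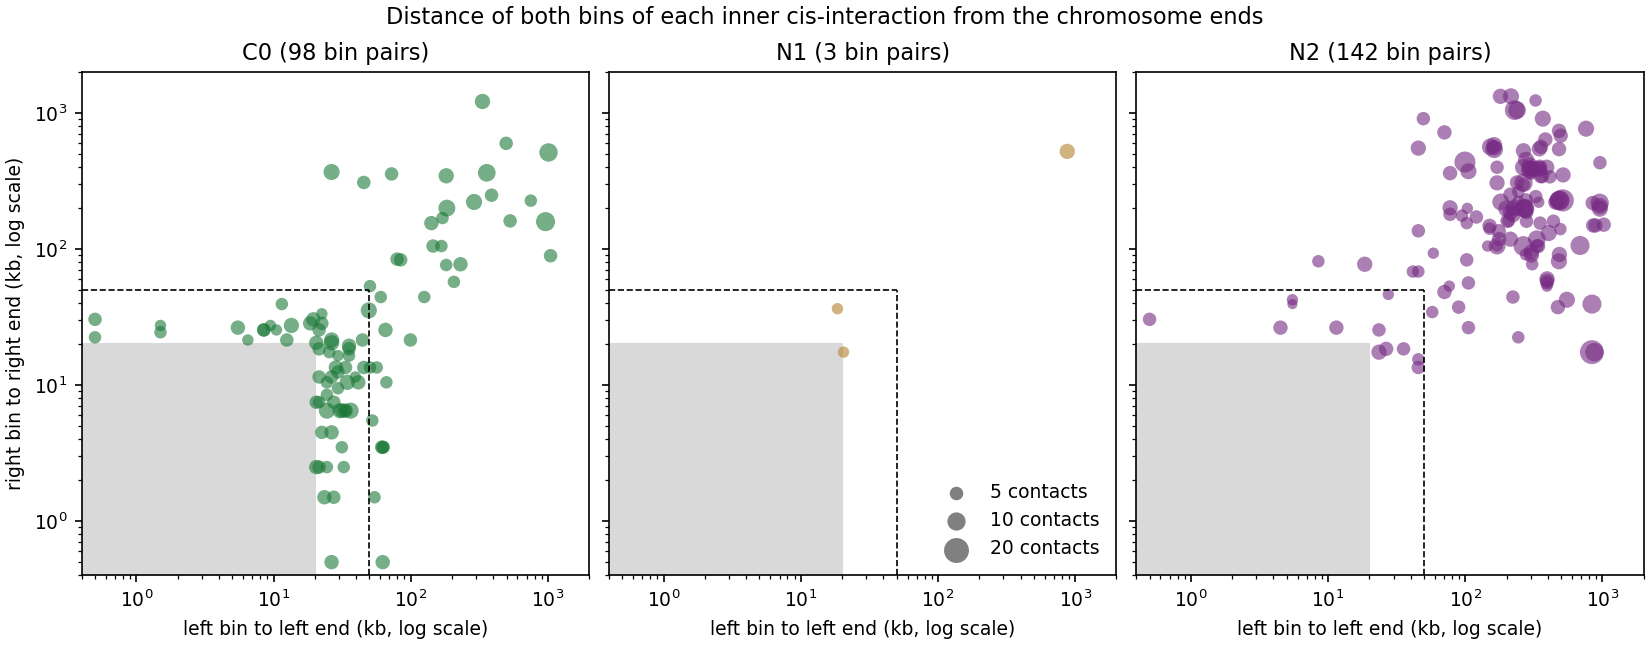
Each point is 1 inner cis-interaction, placed by the distance of its left bin from the left end and of its right bin from the right end (kb, log scales), with its area set by the contact count. The grey square is the end-to-end zone left out by the rule and the dashed lines mark 50 kb. The 98 points of C0 crowd along the edge of the grey square, the 142 of N2 lie mostly beyond 50 kb from both ends, and N1 has 3 points.

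The bin pairs thinned out with depth inside the chromosome in both groups, and more steeply at C0. For the deeper of the 2 bins, meaning the one farther from its own end, 2.60 of 1000 possible bin pairs were listed at C0 at 20 to 30 kb (39 bin pairs, exact Poisson 95% interval 1.85 to 3.55), 0.438 at 30 to 50 kb (21, 0.271 to 0.669), 0.0667 at 50 to 100 kb (15, 0.0373 to 0.110) and 0.00158 beyond 100 kb (23, 0.001002 to 0.00237). Just outside the rule, at up to 20 kb, 27.8 of 1000 were listed (334 bin pairs). At N2 the same classes held 0.333 of 1000 at 20 to 30 kb (5 bin pairs), 0.146 at 30 to 50 kb (7, 0.0586 to 0.3005), 0.0400 at 50 to 100 kb (9, 0.0183 to 0.0759) and 0.00831 beyond 100 kb (121, 0.00690 to 0.00993), with 4.50 just outside the rule (54). At 20 to 30 kb the N2 value (interval 0.108 to 0.778) was the lower one, and beyond 100 kb the order was turned round. The intervals take bin pairs as independent, which neighbouring ones are not, so they are too narrow and give no test between the groups. At 30 to 50 kb and at 50 to 100 kb the intervals of both groups overlapped.

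**Figure D2:**
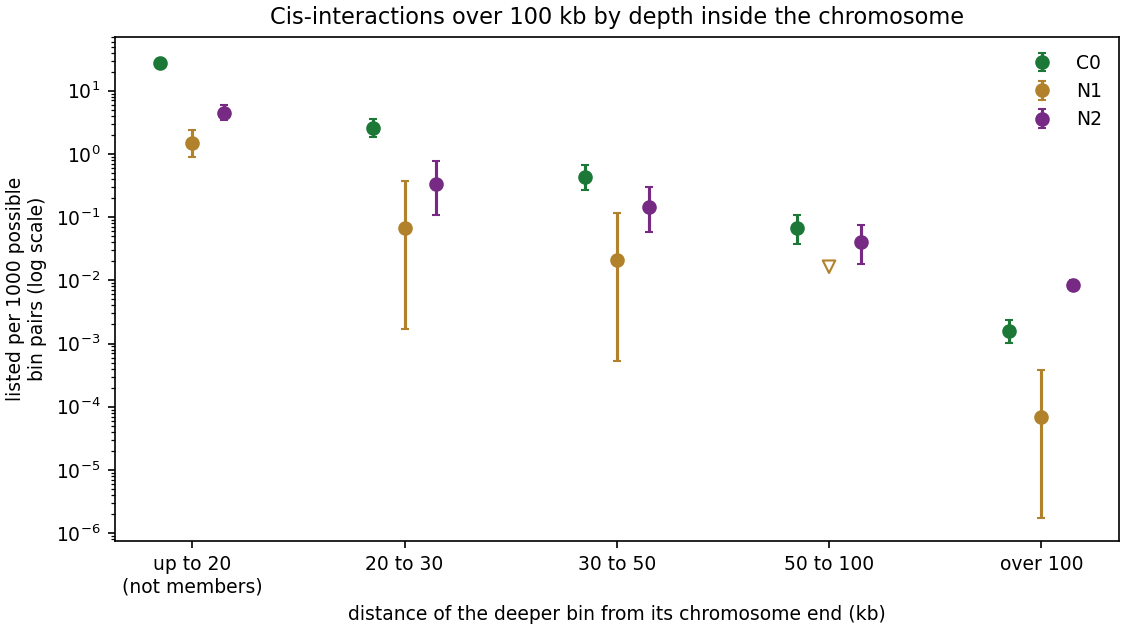
Cis-interactions over 100 kb listed per 1000 possible bin pairs (log scale), by the distance of the deeper bin from its chromosome end (kb), with exact Poisson 95% intervals as bars. The open triangle is the upper limit for N1 where no bin pair was listed. The C0 points lie above the N2 points up to 100 kb, with overlapping bars at 30 to 50 and 50 to 100 kb, and N2 lies above C0 beyond 100 kb, at 0.00831 and 0.00158.

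The median inner bin pair spanned 201 kb at N2 and 601 kb at C0. Spans of up to 200 kb made up 50.0% of the N2 bin pairs (71 of 142) and 10.2% of the C0 bin pairs (10 of 98), against 17.8% of possible ones. Spans over 500 kb made up 21.1% at N2 (30 of 142) and 58.2% at C0 (57 of 98), against 40.8% of possible ones. At the distance limit of the rule itself, 21 bin pairs 91 to 100 kb apart were listed at N2 and 6 at C0, with median contact counts of 11 and 10.5, while just inside it, at 101 to 110 kb, 16 were listed at N2, with a median of 9 contacts, and 0 at C0.

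Most C0 flank interactions had a bin in the end itself. Of the 60 that lay within 50 kb of opposite ends, 52 had a bin within 20 kb of an end, and the left bin was the deeper one in 41, the right bin in 18. The right end was set by the last listed bin, so distances to it can be too short. Neighbouring bin pairs were also counted singly. The 60 were spread over 20 chromosomes. Among all inner bin pairs of C0, flank or not, chromosome 30, the shortest (502000 bp), held the most. It held 24 of the 98 inner bin pairs at C0 (24.5%) and 8 of the 142 at N2 (5.63%), and offered 0.540% of the possible ones. That percentage depends on chromosome length, while every chromosome offers equally many bin pairs between flanks within 50 kb of opposite ends. For flank pairs 0.540% is thus too low a background. Leaving chromosome 30 out, 67.6% of the remaining C0 bin pairs still joined flanks within 50 kb of opposite ends.

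On chromosome 30 the right-end bin at 495001 met the 5 bins at 24001, 30001, 31001, 33001 and 36001 on the left flank at C0. Their contact counts were 10, 9, 8, 8 and 10, where 0.232 to 0.586 contacts were expected, so the ratio of contact count to expected count lay between 17.1 and 34.4. A second set lay deeper on the left side: the bins at 61001, 62001 and 63001 met the right-end bin at 498001 with 7, 7 and 6 contacts, and 62001 met 501001 with 8. No bin pair of these sets was listed at N1 or N2. The bins at 495001 and 498001 had 9 and 7 cis partners of any distance at C0, and 0 at N2, where a partner is a bin listed with it.

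Chromosome 23 carried the largest merged region of C0. When bin pairs within 5 kb of each other at both sides were joined, 7 bin pairs between 28001 and 46000 on the left and 690001 and 698000 on the right formed 1 region with 50 contacts, 5 to 9 in each. It held the highest ratio of the C0 set, 78.6 (95% interval 25.5 to 183), between the bins at 39001 and 692001 with 5 contacts. Chromosome 18 had 4 bin pairs from 20001 to 23000 against 886001 to 892000, with 7 or 8 contacts each, and chromosome 20 had 4 from 24001 to 30000 against 825001 to 835000, with 6 or 7 contacts each. On chromosome 27 the bin at 26001, 26.5 kb from the left end, had 5 inner partners at C0. Those at 615001, 616001, 625001 and 636001 lay at the right end with 9, 9, 7 and 8 contacts, and that at 267001 lay in the interior with 10 contacts.

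The highest contact counts at C0 belonged to the few shorter interior bin pairs rather than to the flanks. The bins at 961001 and 1084001 on chromosome 10 shared 14 contacts (ratio 9.40, 5.14 to 15.8), those at 1010001 and 1149001 on chromosome 3 shared 13, those at 358001 and 529001 on chromosome 18 shared 12, and those at 183001 and 301001 on chromosome 30 shared 11. Over all inner bin pairs of C0 the contact count ran from 5 to 14 with a median of 7, and the median ratio was 29.1. The longest inner bin pair of the series, also at C0, joined 44001 and 1660001 on chromosome 1 over 1616 kb with 7 contacts, against 0.172 expected.

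At N2 the inner interactions were spread over 28 of the 30 chromosomes and led by chromosome 18 with 12, chromosome 20 with 11, and chromosomes 28 and 29 with 10 each. At C0, 23 chromosomes had any, led by chromosomes 30, 23 and 18 with 24, 12 and 9. In both groups the shorter chromosomes carried most: chromosomes 16 to 30 held 73.2% of the inner bin pairs at N2 (104 of 142) and 77.6% at C0 (76 of 98), with 21.3% of the possible ones. This background counts all positions and spans together, and is too low for flank pairs.

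**Figure D3:**
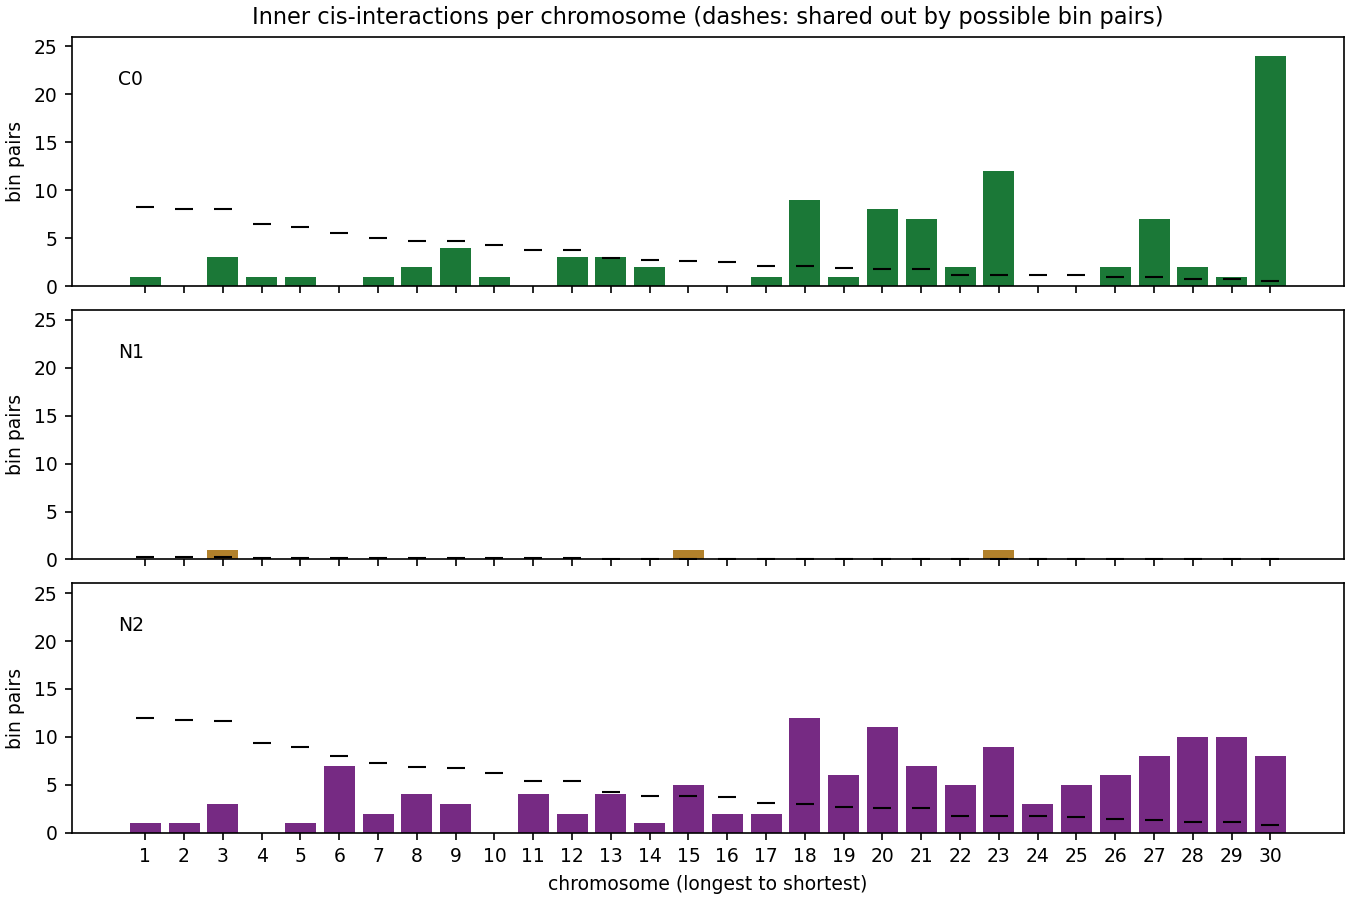
Bars give the inner cis-interactions on each of the 30 chromosomes, numbered from the longest to the shortest, at C0, N1 and N2. The dash is the number each chromosome would hold if the group's total were shared out by its possible bin pairs. Chromosome 30 stands out at C0 with 24, while at N2 chromosomes 18, 20, 28 and 29 hold 10 to 12 each.

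Some bins of the N2 set, mostly interior, had several distant partners, although 144 of its 196 bins had only 1. In it, 22 bins had 3 or more inner partners, against 5 bins at C0, and 52 of 196 bins had more than 1, against 25 of 162. Linking bin pairs that shared a bin gave 12 networks of 4 or more bin pairs at N2, which took up 54.9% of its inner bin pairs (78 of 142), and 4 such networks at C0 with 24.5% (24 of 98). A further 32 of the 58 networks at N2, and 48 of 64 at C0, were single bin pairs. The 22 bins at N2 lay at a median of 199 kb from the nearest end, and none was closer than 45.5 kb.

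The largest network was on chromosome 18, with 10 bins and 11 bin pairs. Its core was a complete grid, in which the bins at 170001 and 265001 each met those at 493001, 586001 and 788001. The bin at 265001 shared 11, 13 and 15 contacts with these, and the bin at 170001 shared 7, 9 and 11 with them. In both rows the farther partner had the higher contact count, although these counts are within counting error of each other. The bin pair 265001 and 788001, 523 kb apart, reached a ratio of 37.3 (20.9 to 61.6). The same part of chromosome 18 was not empty at C0, where the bin at 167001, 3 kb from 170001, met 788001 with 6 contacts, and 170001 met 724001 with 6.

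Chromosome 20 had a network of 9 bin pairs around the bin at 614001. It met the bins at 476001, 485001, 489001 and 513001 with 12, 15, 14 and 19 contacts, and the bin at 277001, 337 kb away, with 8. The bin at 277001 also met 152001, 388001 and 751001 with 11, 10 and 6 contacts, and 751001 met 485001 with 9. Chromosome 28 held the only triangle of either group, 3 bins of which each was listed with the other 2. These were the bins at 77001, 222001 and 404001, with 8 contacts between 77001 and 222001, 7 between 77001 and 404001, and 10 between 222001 and 404001. Next to it, the bins at 269001, 270001 and 271001 met 385001 with 11, 13 and 14 contacts.

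On chromosome 29 the bin at 394001 met 520001, 522001, 524001 and 527001 with 9, 8, 7 and 5 contacts and 280001 with 7. These 4 bin pairs between 394001 to 395000 and 520001 to 528000 were the only merged region of N2 with 4 bin pairs, against 6 such regions of 4 to 7 bin pairs at C0. The C0 bin pairs fell into 71 merged regions and the N2 bin pairs into 131.

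Further N2 networks each had a leading bin. On chromosome 6 the bin at 482001 met 49001, 367001, 652001 and 849001 with 7, 10, 8 and 8 contacts, and 849001 met 1175001 with 8. On chromosome 8 the bin at 956001 met 360001, 414001, 1089001 and 1098001 with 6, 7, 10 and 10. On chromosome 15 the bin at 838001 met 279001, 439001, 959001 and 981001 with 7, 7, 14 and 22 contacts, and the last of these, 143 kb apart, was the highest contact count of any inner bin pair in the series (ratio 25.5, 15.98 to 38.6). The bin at 981001 also met 872001, with 13 contacts. Chromosome 23 differed from these, since its leading bin at 45001 lay 45.5 kb from the left end. It met 150001, 567001, 635001, 688001 and 690001 with 9, 7, 6, 6 and 7 contacts, and 635001 also met 41001, with 6.

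Other strong bin pairs of N2 stood outside these networks or at their edge. The bins at 99001 and 243001 on chromosome 25 shared 17 contacts, against 0.440 expected (ratio 38.7, 22.5 to 61.9), and those at 229001 and 340001 on chromosome 6 shared 15 (ratio 22.7, 12.7 to 37.5). The highest ratio, 135 (36.9 to 346), belonged to the bins at 5001 and 641001 on chromosome 25, with only 4 contacts, and the next, 108 (49.2 to 204), to those at 23001 and 962001 on chromosome 16, with 9 contacts. Both were flank pairs of the kind that prevailed at C0. Over all inner bin pairs of N2 the contact count ran from 4 to 22 with a median of 8, and the median ratio was 22.1. The longest spanned 1317 kb, from 58001 to 1375001 on chromosome 5, with 5 contacts.

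**Figure D4:**
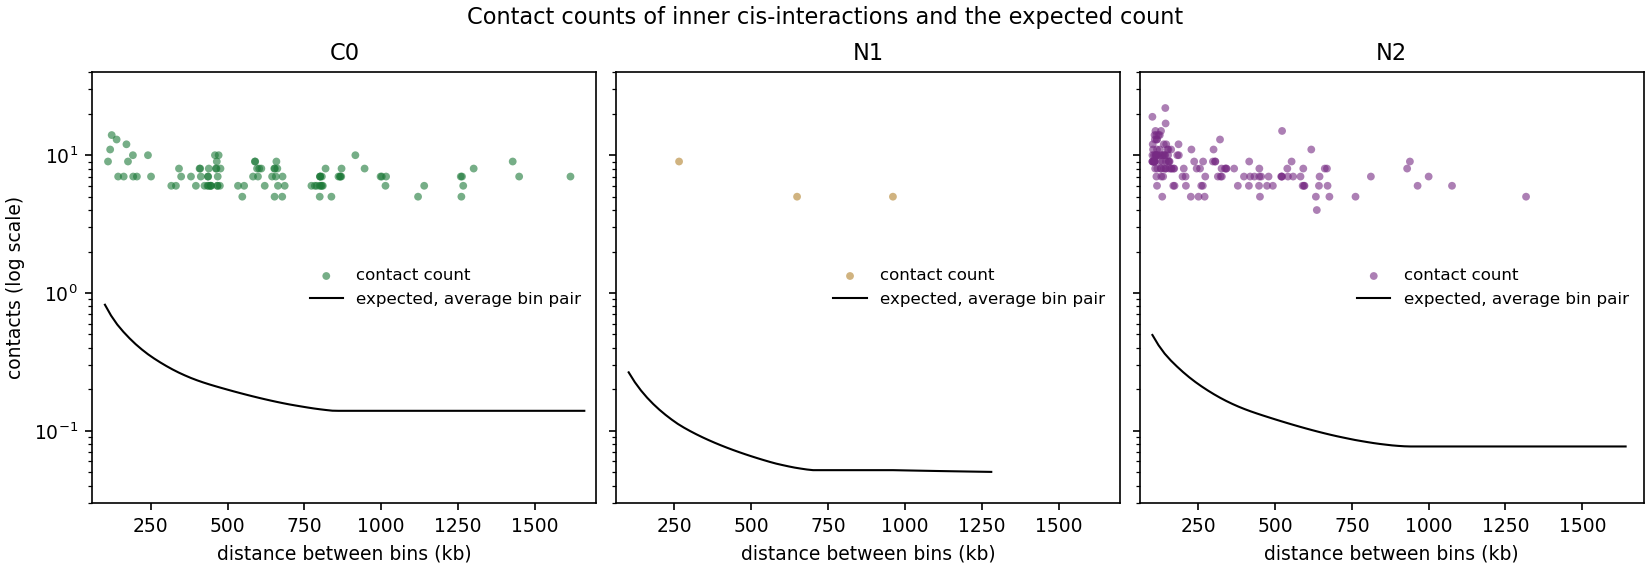
Contact count of each inner cis-interaction against the distance between its bins (kb), with the expected count of an average bin pair as a line (contacts, log scale). Counts lie between 5 and 14 in the C0 panel, 5 and 9 in the N1 panel, and 4 and 22 in the N2 panel. The N2 points are densest below 200 kb, and the expected line of C0 lies above that of N2.

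The bins that carried inner interactions at N2 were also rich in shorter contacts, which the rule did not use. At N2 they had a median of 4 cis partners up to 100 kb away, and at C0 a median of 1, against 1 in both groups for the other bins with such a partner. Partners at over 10 and up to 100 kb were listed for 64.8% of these bins at N2 (127 of 196) and 17.3% at C0 (28 of 162), against 26.2% and 17.97% of the other bins. Counted by bin pair, 81.7% of the N2 inner interactions (116 of 142, 74.3% to 87.7%) had at least 1 bin with 5 or more partners up to 100 kb, and 18.4% of the C0 ones (18 of 98, 11.3% to 27.5%). Such bins were more common in the whole N2 list, with 391 at N2 and 210 at C0. Of these, 22.3% and 7.62% were bins of inner interactions. Bin pairs over 10 and up to 100 kb numbered 1256 at N2 and 571 at C0. The share of all cis-interactions with at least 1 such bin was not counted. Whether 81.7% and 18.4% are particular to inner interactions is therefore not known. The share of bins without any partner up to 100 kb was 13.8% at N2 (27 of 196) and 35.2% at C0 (57 of 162).

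The bias factor of a bin, by which its expected contacts were scaled and where 1 is an average bin, had a median over the bins of inner interactions of 1.32 at N2 and 1.18 at C0, against 1.16 and 1.02 over all cis-interactions. It was above that of all cis-interactions in both groups. The median number of shorter partners was above that of other bins at N2 and equal to it at C0. The other bins have at least 1 such partner by definition, which raises their median. Bins with 5 to 9 shorter partners made up 25.0% at N2 and 8.64% at C0, against 5.56% and 3.84% of the other bins. Those with 10 or more made up 19.4% and 1.23%, against 0.842% and 0.417%. The part of the bias factor in the number of partners was not tested. Among the 22 leading bins of N2 the factor ran from 0.555, at 394001 on chromosome 29, to 1.99, at 838001 on chromosome 15, so both low and high factors occurred.

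**Figure D5:**
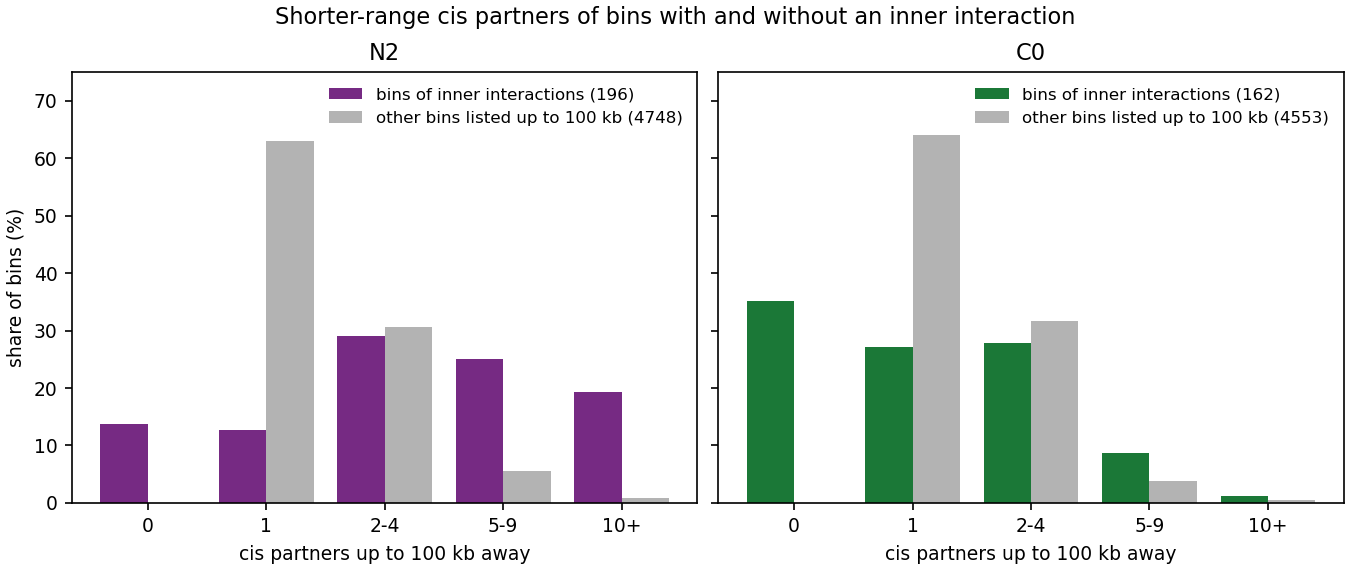
Share of bins (%) by their number of cis partners up to 100 kb away, at N2 (left) and C0 (right), for bins with an inner interaction (coloured, 196 and 162 bins) and for the other bins with such a partner (grey, 4748 and 4553 bins, which have at least 1 by definition). Of the N2 bins with an inner interaction 19.4% had 10 or more partners, and of the C0 ones 1.23%.

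Some of these bins also met other chromosomes. Bins of inner interactions also stood in the trans list in 11.2% of cases at N2 (22 of 196) and 20.4% at C0 (33 of 162), against 3.43% and 5.25% of the other bins with a partner up to 100 kb. In addition 37 of the 162 bins at C0 were part of an end-to-end bin pair, against 6 of 196 at N2. These shares rest on single pooled lists, and trans lists of different depth.

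Overlap between the groups was counted for inner bin pairs only. Whether it differed from that of all cis-interactions was not tested. The N2 and C0 lists shared 3 inner bin pairs, which was 2.11% of the N2 bin pairs and 3.06% of the C0 ones, and neither shared any with N1. All 3 were similar in contact count. The bins at 45001 and 690001 on chromosome 23 had 7 contacts at N2 and 7 at C0, with ratios of 40.1 (16.1 to 82.7) and 22.7 (9.14 to 46.9). Those at 35001 and 618001 on chromosome 27 had 7 at N2 and 7 at C0, with ratios of 34.7 and 24.5. Those at 145001 and 396001 on chromosome 30 had 5 at N2 and 7 at C0, with ratios of 46.9 and 25.98. The intervals overlapped in each case. Allowing 5 bins of difference on both sides, 7 of the N2 bin pairs had a match at C0 (4.93%) and 8 of the C0 ones a match at N2 (8.16%). The lists had 24 bins in common, 12.2% of the N2 bins and 14.8% of the C0 bins.

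Not being listed limits the ratio a bin pair can have had, and this limit was unequal. Both bins of 82 of the 142 N2 bin pairs had a known bias factor at C0, and 79 of these were unlisted there. A factor was known only for bins that stood in some interaction listed in the group. For 78 of the 79 the N2 ratio was above the highest ratio that would have gone unlisted at C0, whose median was 13.9. That count was largely set in advance, since the bin pairs were chosen at N2 and C0 was deeper. The lower end of the N2 interval was above the highest unlisted ratio for only 6 bin pairs. They were 99001 to 243001 on chromosome 25, 238001 to 340001 and 229001 to 340001 on chromosome 6, 265001 to 788001 on chromosome 18, 838001 to 981001 on chromosome 15, and 222001 to 404001 on chromosome 28. The last of these had 10 contacts at N2 (ratio 31.8, 15.3 to 58.5) and could have had at most 7 at C0 without being listed (ratio 14.8). In the other direction, 30 C0 bin pairs with known factors were unlisted at N2, where the median limit was 34.6. The C0 ratio was above the bin pair's own limit for 2, and the lower end of its interval for 0. At the depth of N2 the list thus could not show whether most of these C0 bin pairs had changed. These bin pairs were chosen for a high count in 1 group, and the comparison makes no allowance for that choice.

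At N1, the shallowest group, 3 inner bin pairs were listed. The bins at 875001 and 1140001 on chromosome 3, both in the interior, shared 9 contacts, against 0.156 expected (ratio 57.7, 26.4 to 110). Those at 20001 and 981001 on chromosome 15 shared 5 (ratio 181, 58.9 to 424), and those at 18001 and 667001 on chromosome 23 shared 5 (ratio 114, 37.1 to 267). The bin pairs on chromosomes 15 and 23 joined flanks within 50 kb of opposite ends. No N1 bin pair had a match at C0 or N2 within 5 bins. The bin at 981001 on chromosome 15 was the partner of 838001 in the highest count of N2 and was the only bin common to both lists. All N1 ratios were at least 57.7. For the 24 N2 bin pairs with known factors at N1 the median limit was 60.3, and none had a ratio above its own limit. In the other direction, the N1 bin pair on chromosome 23 was the only one with known factors at C0 and at N2. Its ratio of 114 was above the limit of 24.2 at C0, as was the lower end of its interval, and above the limit of 39.7 at N2, where the lower end was not. Depth and day of ND cannot be told apart in the small number at N1.

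Depth also bears on the sizes of the other lists. With contact and expected counts of C0 were scaled to the depth of N2 and rounded down, 0 of its 98 inner bin pairs still passed the limit of the N2 list, and of the N2 set 6 of 142 passed the limit of N1. Rounding down lowers every count, so these are lower bounds. The N2 list was thus the larger although its depth was lower, but which list is larger depends on the limits of the rule: with ends of 10 kb in place of 20 kb, 163 inner bin pairs were counted at N2 and 236 at C0, and over 200 kb in place of 100 kb, 71 at N2 and 88 at C0.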

How the data were processed

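Hi-C contacts were measured in NR cultures (C0) and in cultures under ND for 1 day (N1) or 2 days (N2), each with 2 replicates. The authors digested chromatin with MboI, processed reads with HiC-Pro, pooled replicates and called interactions with Fit-Hi-C. They kept bin pairs with a contact count above 2 and a q-value below 0.01. The methods name 10-kb bins, but the deposited lists hold 1-kb bins, which were used as they are. Deposited values are raw contact counts, not scaled for depth, p-values and q-values, and a score per bin, the authors' bias factor. Lists of shared interactions that the authors also deposited were not used.

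The expected count is the Poisson mean at which the observed contact count, or a higher one, has the deposited p-value. The right end of a chromosome was the highest midpoint in any of the 6 lists plus 500 bp. An expected count in another group was taken from that group's curve over distance and its bias factors. Intervals are exact Poisson and Clopper-Pearson. Python 3.11.15 with scipy 1.17.1 and networkx 3.6.1 was used, and the recovery and merging were tested on simulated data.

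Named are the N1 bin pairs, the 5 with the highest contact count or ratio at C0 and N2, bin pairs in more than one group, regions of 4 or more bin pairs, bins with most partners, leading chromosomes and the longest bin pairs, and not all are described. Members, lists and rules were chosen with earlier results of these data known, and the networks and the 22 bins of N2 after their values were seen. Alternatives were other end widths, distances, q-values, contact minimums, merging distances and match tolerances, depth scaling, and leaving out chromosome 30.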

Additional observations from a re-analysis of the deposited data

How the results depend on the processing

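No paired analysis was possible because the deposited lists pool the replicates of each group, and leaving out a replicate could not be run for the same reason. Of 85 values under the alternatives, 58 stayed within their interval or within 1.5 times the count reported. The share of flank bin pairs was lower at N2 than at C0 under the 4 alternatives run for it, and the share of bin pairs with a well-connected bin was higher at N2 under the 3 run for it; end width, distance and depth were not varied for these. The 27 that moved were these. With a chromosome end of 10 kb the inner bin pairs numbered 236 at C0 and 5 at N1, more at C0 than the 163 at N2, and the inner share of cis-interactions over 100 kb was 83.2% at N2 and 54.6% at C0 (72.4% and 22.7% as reported). With 50 kb there were 38 at C0 and 1 at N1, the inner share at C0 was 8.80%, and the share with a bin near an end was 39.5% at C0 and 0% at N1. Over 50 kb instead of 100 kb, there were 324 at N2 and 6 at N1, with inner shares of 85.7% at N2 and 29.7% at C0. Over 200 kb there were 71 at N2, an inner share of 56.8%, fewer than the 88 at C0. A q-value below 0.001 left 69 at N2 and 39 at C0, and at C0 74.4% of these joined flanks within 50 kb of opposite ends. Merging neighbouring bin pairs, end-to-end ones included, gave inner shares of 81.4% at N2 and 55.9% at C0, and 49.3% of the C0 regions had a bin within 20 kb of an end. Scaled to the depth of N1, 6 bin pairs were left at N2 and 0 at C0, and scaled to N2, 0 at C0. With a match within 5 bins, 7 N2 bin pairs had a match at C0. With 10 or more partners up to 100 kb in place of 5, an alternative added after seeing the data like all those on flank and partner shares, 54.2% of N2 and 2.04% of C0 bin pairs had such a bin.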
